A study of Mus musculus with 9 samples.

Results

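The Kruppel-like factor genes *Klf2*, *Klf3*, *Klf4*, *Klf5*, *Klf6*, *Klf7*, *Klf9*, *Klf10*, *Klf13* and *Klf15* were examined in the mouse uterus with and without *Wnk1*. They were taken by symbol from a table of 31274 entries, all 10 were found, and all 10 passed the filter on low values among 14728 genes tested. RNA-Seq was performed on whole uteri of C57BL/6 mice on pseudopregnancy day (PPD) 4.5, the time of receptivity to an embryo, from 4 Wnk1f/f mice (controls with both *Wnk1* alleles floxed) and 5 Wnk1d/d mice, with 1 library per mouse. Wnk1d/d mice carried the same floxed alleles together with Cre expressed from the progesterone receptor locus, which removes exon 2 of *Wnk1*. The females were virgin young adults, and pseudopregnancy was induced with vasectomized WT males, so no embryo was present. Cre at this locus acts in epithelium, stroma and muscle of the uterus and also in ovary and pituitary, and cells without progesterone receptor keep *Wnk1*. No group carried Cre alone, so the Cre allele and the deletion cannot be told apart.

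Kruppel-like factors are zinc finger transcription factors that bind GC-rich and CACCC elements through a conserved carboxyl-terminal domain, while their divergent amino-terminal regions recruit coactivators or corepressors. Several are tied to steroid hormones in the uterus. KLF9 is a partner of the progesterone receptor, KLF5 in the luminal epithelium is needed for embryo attachment, and KLF4 and KLF15 act with ovarian hormones on the division of epithelial cells. KLF2 is best known from endothelium, where blood flow induces it.

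Values are FPKM, fragments scaled to gene length and library size, so levels can be compared between genes, but the absolute depth behind them is unknown. The genotypes were compared by limma on log2(FPKM + 1), two-sided and without pairing. A gene was called when its p-value, adjusted by the Benjamini-Hochberg method over all 14728 genes, was under 0.05, and a further criterion asked that the mean FPKM differ by at least 1.5-fold. Fold changes are Wnk1d/d over Wnk1f/f on this log2 scale, which understates changes of low genes. Each member was in addition tested by permuting the libraries exhaustively (two-sided and exact), where the design with 4 and 5 libraries cannot give a p below 0.0079. *Wnk1* itself was at 43.4 to 47.3 FPKM in Wnk1f/f and 29.85 to 33.9 FPKM in Wnk1d/d libraries (log2 fold change -0.52, SE 0.06, limma adjusted p = 0.0017). The median log2 value of the tested genes was 3.80 to 3.82 in all libraries, although a single entry took 70.3% of the summed FPKM in Wnk1d/d replicate 4. Liver marker genes summed to 175 FPKM in Wnk1f/f replicate 4 and to 8.72 to 28.3 FPKM in the other libraries.

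Of the 10 genes, 3 were called lower in Wnk1d/d uteri (*Klf2*, *Klf6* and *Klf15*) and 0 were called higher. Among all genes tested, 22.1% were called, 11.0% lower and 11.1% higher. With the 1.5-fold criterion added, 2 of the 10 (*Klf2* and *Klf15*) were lower, against 5.18% of all genes, and 0 were higher, against 5.09%. The genotypes did not overlap for 4 of the 10 genes, against 19.9% of all genes. At an unadjusted p under 0.05 the number was 6, with *Klf4* (higher), *Klf9* and *Klf13* (both lower) beside the 3 called genes. The share of all genes under this threshold was not computed, and it exceeds the 22.1% called. Whether 6 of 10 lies above that share is therefore unknown, and the number is given as a description. The mean was lower in Wnk1d/d uteri for 7 genes and higher for 3, and the median log2 fold change over the 10 was -0.18, where the median over all genes tested was 0.003.

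**Figure D1:**
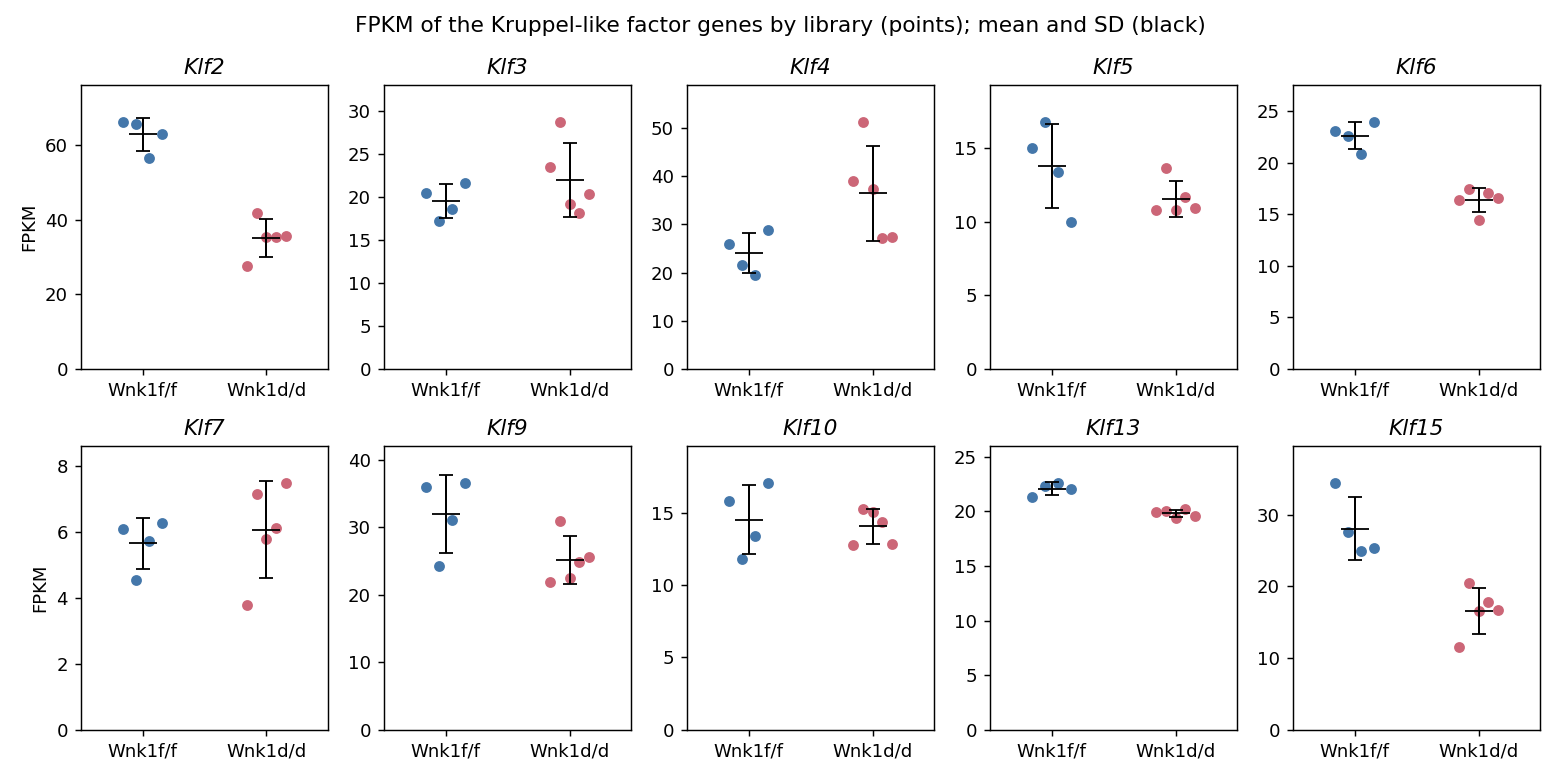
FPKM (y axis, linear, starting at 0) of each of the 10 Kruppel-like factor genes by genotype. Points are libraries (4 Wnk1f/f, 5 Wnk1d/d), and black marks are the mean with the SD. The genotypes do not overlap for Klf2, Klf6, Klf13 and Klf15, and 3 of the 5 Wnk1d/d libraries lie above all Wnk1f/f libraries for Klf4.

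The bases upstream of 4 of the genes are shown because *Klf2*, *Klf6* and *Klf15* were lower together, whereas *Klf4* had the largest increase in mean among the 10. They were taken from RefSeq on build GRCm38.p6 and read 5′ to 3′ along the transcript, ending before the first annotated base of the gene in GENCODE as well. Capitals mark CACCC and GGGCGG on either strand, the elements that these factors themselves bind, and a site for MEF2, the factor through which flow signals are known to reach *Klf2*.
Klf2 (chr8:72318812-72319032, plus strand): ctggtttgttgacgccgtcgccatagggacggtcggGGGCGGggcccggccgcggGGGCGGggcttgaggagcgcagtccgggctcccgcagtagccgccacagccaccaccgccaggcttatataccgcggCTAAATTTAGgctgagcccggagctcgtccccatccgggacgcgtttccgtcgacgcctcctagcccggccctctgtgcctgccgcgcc
Klf6 (chr13:5861239-5861481, plus strand): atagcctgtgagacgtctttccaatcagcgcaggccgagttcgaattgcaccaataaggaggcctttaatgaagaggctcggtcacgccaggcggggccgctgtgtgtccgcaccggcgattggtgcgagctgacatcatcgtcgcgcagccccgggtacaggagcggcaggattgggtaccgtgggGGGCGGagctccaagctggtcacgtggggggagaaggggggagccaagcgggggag
Klf15 (chr6:90462326-90462575, plus strand): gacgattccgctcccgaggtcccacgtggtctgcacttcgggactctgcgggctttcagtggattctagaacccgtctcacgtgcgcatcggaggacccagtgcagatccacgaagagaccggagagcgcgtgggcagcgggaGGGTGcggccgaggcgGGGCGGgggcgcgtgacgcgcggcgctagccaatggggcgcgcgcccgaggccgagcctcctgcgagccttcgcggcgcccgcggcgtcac
Klf4 (chr4:55532476-55532725, minus strand): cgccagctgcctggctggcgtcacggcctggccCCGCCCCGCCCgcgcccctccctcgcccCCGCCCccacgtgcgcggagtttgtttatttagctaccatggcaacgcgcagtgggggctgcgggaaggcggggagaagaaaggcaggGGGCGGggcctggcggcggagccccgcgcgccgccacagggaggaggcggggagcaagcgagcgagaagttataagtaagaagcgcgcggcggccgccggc
A RefSeq promoter was found for 8 of the 10 genes, *Klf5* and *Klf10* being the others. In the 250 bases before the RefSeq start, searched on both strands, GGGCGG was present in 7 of these 8 and in 32.7% of all 32851 promoters. CACCC was present in 6 of 8 and in 52.0% of all promoters, and CCAAT in 4 of 8 and in 33.8%. The MEF2 site was found in 1 of 8 (*Klf2*, starting at position -118 from the RefSeq start, which lies downstream of the stretch shown) and in 2.92% of all promoters. TATAAA (12.4% of all promoters), the palindromic site of the progesterone and glucocorticoid receptors (0.00913%) and the serum response element (1.47%) were found in 0 of 8. *Klf4* held 4 copies of GGGCGG, an overlapping pair among them, and *Klf2* held 2. *Klf15* held 1 GGGCGG and 1 CACCC, and *Klf6* held 1 GGGCGG and 4 copies of CCAAT. The single CACCC of *Klf2* lies downstream of the stretch shown. These promoters were GC-rich, with 59.2% to 78.4% G and C against a median of 52.4% over all promoters. The matches are letters in a window and were not tested for binding.

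Among the hormone-linked members, *Klf15* was lower in Wnk1d/d uteri. KLF15 is a regulator of amino acid and glucose metabolism that glucocorticoids induce in many tissues and that restrains epithelial growth in the uterus. The gene lies on the plus strand of chromosome 6 (90462576 to 90475238 on mm10, GENCODE M21). *Wnk1* is on the same chromosome, 29448730 bases away. In Wnk1f/f replicates 1 to 4 it was at 34.4, 27.5, 24.95 and 25.3 FPKM. In Wnk1d/d replicates 1 to 5 it was at 11.5, 20.4, 16.6, 17.8 and 16.6 FPKM. Every Wnk1d/d library was below every control, with a gap of 4.55 FPKM between the nearest libraries. The means were 28.0 ± 4.41 (SD, n = 4) and 16.6 ± 3.24 FPKM (SD, n = 5), a ratio of 0.591 (log2 fold change -0.73, SE 0.15, limma adjusted p = 0.012; exact permutation p = 0.0079). In whole uterus, fewer cells of a type that expresses a gene and less of its RNA per cell cannot be told apart.

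*Klf4* differed in the other direction, with a spread that kept it from being called. KLF4 is a factor of differentiating epithelia that halts the cell cycle in many of them, and is also active in endothelium, smooth muscle and macrophages. It lies on the minus strand of chromosome 4 (55527143 to 55532466). Wnk1f/f libraries had 26.0, 21.65, 19.6 and 28.8 FPKM, and Wnk1d/d libraries 39.0, 51.25, 37.3, 27.2 and 27.5 FPKM. Wnk1d/d replicates 1 to 3 were above all controls, while replicates 4 and 5 lay within the range of the controls. The means were 24.0 ± 4.16 (SD, n = 4) and 36.4 ± 9.9 FPKM (SD, n = 5), a ratio of 1.52, with a log2 fold change of 0.56 (SE 0.19, 95% interval 0.13 to 0.99, limma adjusted p = 0.062). By exact permutation p was 0.063. Without Wnk1d/d replicate 4, *Klf4* was called (log2 fold change 0.65, limma adjusted p = 0.048), and in the fits that each left out 1 of the other libraries it was not. Without replicate 4 of either genotype, the change was 0.74 (limma adjusted p = 0.059).

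*Klf5* and *Klf9* were not called either. *Klf5*, on the plus strand of chromosome 14 (99298691 to 99315036), encodes a factor that promotes proliferation of epithelial cells. Its levels were 15.0, 16.8, 13.4 and 10 FPKM in Wnk1f/f and 10.8, 13.65, 10.8, 11.7 and 10.9 FPKM in Wnk1d/d libraries. The lowest *Klf5* value of all 9 libraries was that of a control, Wnk1f/f replicate 4, the library with the high liver marker sum. The genotypes overlapped. The means of *Klf5* were 13.8 ± 2.88 (SD, n = 4) and 11.6 ± 1.23 FPKM (SD, n = 5), with a log2 fold change of -0.22 (SE 0.13, 95% interval -0.52 to 0.08, limma adjusted p = 0.25). Without Wnk1f/f replicate 4 the change of *Klf5* was -0.35 (SE 0.10, limma adjusted p = 0.055). Over the 9 fits that each left out 1 library it ranged from -0.354 to -0.123, with 0 calls.

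*Klf9*, on the plus strand of chromosome 19 (23141226 to 23168134), encodes the partner of the progesterone receptor and is itself induced by glucocorticoids and thyroid hormone. It was at 36.0, 24.2, 31.05 and 36.6 FPKM in Wnk1f/f and at 21.9, 30.9, 22.5, 24.8 and 25.6 FPKM in Wnk1d/d libraries. Only Wnk1d/d replicates 1 and 3 were below all controls. The means of *Klf9* were 32.0 ± 5.74 (SD, n = 4) and 25.1 ± 3.6 FPKM (SD, n = 5), with a log2 fold change of -0.33 (SE 0.14, 95% interval -0.64 to -0.02, limma adjusted p = 0.11). This result rested on single libraries: *Klf9* was called without Wnk1f/f replicate 2, the control with the lowest level (log2 fold change -0.45, limma adjusted p = 0.036), and without Wnk1d/d replicate 2, the Wnk1d/d library with the highest (-0.40, limma adjusted p = 0.047). A microRNA gene, *Mir1192*, overlaps *Klf9* on the same strand.

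*Klf13* encodes the closest relative of KLF9, and together the pair represses through the SIN3A corepressor. It lies on the minus strand of chromosome 7 (63886351 to 63938915), where the coding gene *E030018B13Rik* and the transcript *Gm27252* overlap it on the opposite strand, and without a stated strand setting their fragments cannot be told apart from those of *Klf13*. It had the smallest spread of the 10 genes, with a CV of 2.63% in Wnk1f/f and 1.66% in Wnk1d/d libraries. The values were 21.3, 22.35, 22.6 and 22.1 FPKM in Wnk1f/f and 19.9, 20.02, 19.4, 20.2 and 19.6 FPKM in Wnk1d/d libraries. The groups did not overlap, but the gap was 1.07 FPKM and the ratio of means 0.898. *Klf13* was just short of a call (log2 fold change -0.15, SE 0.05, limma adjusted p = 0.052; exact permutation p = 0.0079), and some of the alternative settings placed it below the threshold.

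*Klf2* was the highest of the 10 genes in control uteri and had the largest decrease among them. Besides its role in endothelium, KLF2 keeps lymphocytes quiescent. The gene spans 2624 bases on the plus strand of chromosome 8 (72319033 to 72321656). The 4 Wnk1f/f libraries had 66.3, 65.8, 56.7 and 63.0 FPKM, and the 5 Wnk1d/d libraries 27.6, 41.9, 35.4, 35.4 and 35.7 FPKM. A gap of 14.8 FPKM separated the genotypes. The means of *Klf2* were 62.9 ± 4.42 (SD, n = 4) and 35.2 ± 5.06 FPKM (SD, n = 5), a ratio of 0.559 (log2 fold change -0.83, SE 0.11, limma adjusted p = 0.0027; exact permutation p = 0.0079). *Klf2* was called under each of the 20 alternative fits, with log2 fold changes from -0.90 to -0.75.

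*Klf6* was lower by a smaller margin. KLF6 is a widely expressed factor induced by injury, including in vascular cells. It lies on the plus strand of chromosome 13 (5861482 to 5870394). Its levels were 23.05, 22.6, 20.8 and 23.95 FPKM in Wnk1f/f and 16.4, 17.5, 14.4, 17.1 and 16.5 FPKM in Wnk1d/d libraries, with no overlap and a gap of 3.37 FPKM. The means of *Klf6* were 22.6 ± 1.31 (SD, n = 4) and 16.4 ± 1.18 FPKM (SD, n = 5), a ratio of 0.725 (log2 fold change -0.44, SE 0.07, limma adjusted p = 0.0053; exact permutation p = 0.0079), which did not reach the 1.5-fold criterion.

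The remaining members overlapped between genotypes and were not called. *Klf3* encodes a repressor that works through CTBP proteins and curbs adipocyte and erythroid genes. It was at 17.2 to 21.65 FPKM (median 19.5) in Wnk1f/f and at 18.1 to 28.7 FPKM (median 20.3) in Wnk1d/d libraries (log2 fold change 0.15, 95% interval -0.14 to 0.44, limma adjusted p = 0.42). *Klf10*, an early gene of the TGF-beta response, was at 11.8 to 17.1 FPKM in Wnk1f/f and at 12.8 to 15.3 FPKM in Wnk1d/d libraries (log2 fold change -0.04, 95% interval -0.28 to 0.21, limma adjusted p = 0.83). *Klf7*, known from neurons and adipose tissue, was the lowest of the 10, at 4.53 to 6.26 FPKM in Wnk1f/f and 3.78 to 7.49 FPKM in Wnk1d/d libraries (log2 fold change 0.07, 95% interval -0.30 to 0.44, limma adjusted p = 0.79). The intervals of *Klf3* and *Klf7* reach changes of over 0.4 on the log2 scale, so a difference of that size could have gone undetected. The sign turned for *Klf7* without Wnk1f/f replicate 2 (-0.02) or Wnk1d/d replicate 5 (-0.006), and for *Klf10* without Wnk1f/f replicate 1 (0.007) or 4 (0.04). Transcripts on the opposite strand overlap *Klf3* (*Gm20033*; chromosome 5, 64803388 to 64832901, plus strand) and *Klf7* (*Gm26649* and *Gm13748*; chromosome 1, 64029447 to 64122282, minus strand), and their fragments cannot be told apart. *Klf10* lies on the minus strand of chromosome 15 (38291463 to 38300706), with no overlapping gene.

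**Figure D2:**
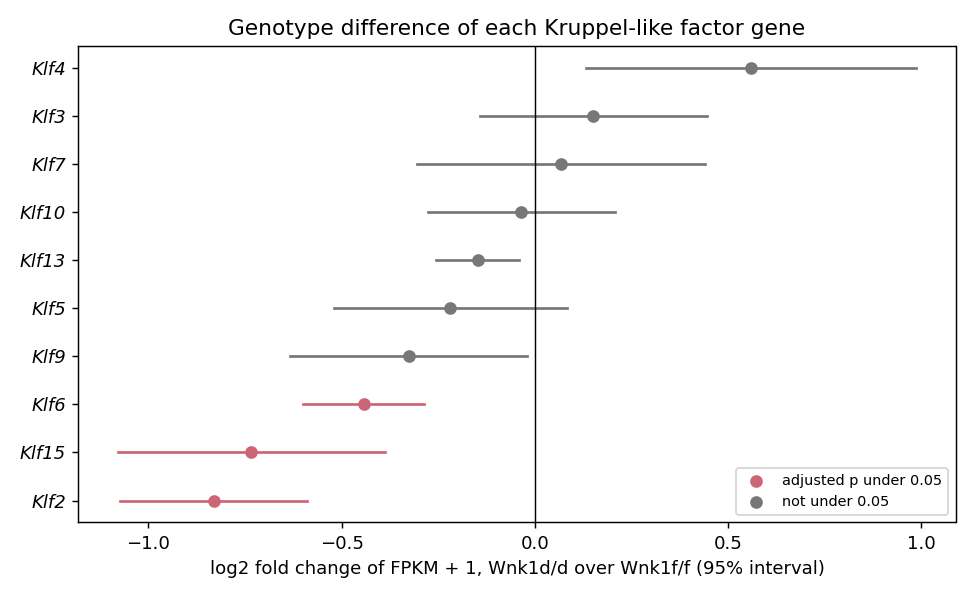
Log2 fold change of FPKM + 1 (x axis, Wnk1d/d over Wnk1f/f) of each of the 10 genes, with unadjusted 95% intervals from limma (lines). Red marks an adjusted p under 0.05 (Klf2, Klf15 and Klf6, all below 0). The intervals of Klf9 and Klf13 lie below 0 and that of Klf4 above 0, but these 3 missed the adjusted threshold.

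The order of the mean levels within the family differed between the genotypes. In Wnk1f/f uteri *Klf2* stood alone at the top with 62.9 FPKM, its lowest library being above the highest library of any other member. *Klf9* (32.0), *Klf15* (28.0), *Klf4* (24.0), *Klf6* (22.6), *Klf13* (22.1) and *Klf3* (19.5) followed, and each overlapped its neighbour in this order. *Klf10* (14.5) and *Klf5* (13.8) were not separated from each other, and *Klf7* (5.65 FPKM) was below both. In Wnk1d/d uteri *Klf4* (36.4 FPKM) and *Klf2* (35.2 FPKM) overlapped at the top, and *Klf2* also overlapped the next gene, *Klf9* (25.1 FPKM). *Klf15* (16.6 FPKM) stood next to *Klf6* (16.4 FPKM). Each gene from *Klf4* down to *Klf10* overlapped its neighbour in this order, so none of these were separated. Only *Klf7* was again apart, at the bottom with 6.07 FPKM.

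These differences show in the summed level. The 10 genes together came to 245 ± 17.4 FPKM (SD, n = 4; 227 to 264) in Wnk1f/f and 203 ± 24.7 FPKM (SD, n = 5; 187 to 247) in Wnk1d/d uteri, ranges that overlapped. Of this sum *Klf2* made up 25.7% ± 1.59 in Wnk1f/f and 17.3% ± 1.54 in Wnk1d/d uteri. *Klf4* made up 9.75% ± 1.14 and 17.8% ± 3.39, and its share in the lowest Wnk1d/d library (14.1%) exceeded that in the highest control (11.3%). The share of *Klf3*, a gene that was not called, did not overlap either (7.32% to 8.5% in Wnk1f/f and 9.39% to 12.5% in Wnk1d/d libraries). With a lower sum, a gene of unchanged level also rises in its share. The share of *Klf15* was 11.4% ± 1.29 in Wnk1f/f and 8.15% ± 1.17 in Wnk1d/d uteri. The level of *Klf2* was 2.19 to 3.04 times that of *Klf4* in Wnk1f/f libraries and 0.709 to 1.3 times in Wnk1d/d libraries. *Klf4* was at 0.755 to 1.14 times the level of *Klf15* in Wnk1f/f and at 1.53 to 3.39 times in Wnk1d/d libraries, also without overlap. The ratio of *Klf9* to *Klf13* overlapped between genotypes (1.08 to 1.69 and 1.1 to 1.55). As the shares rest on the same values as the fold changes, they are given as a description.

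**Figure D3:**
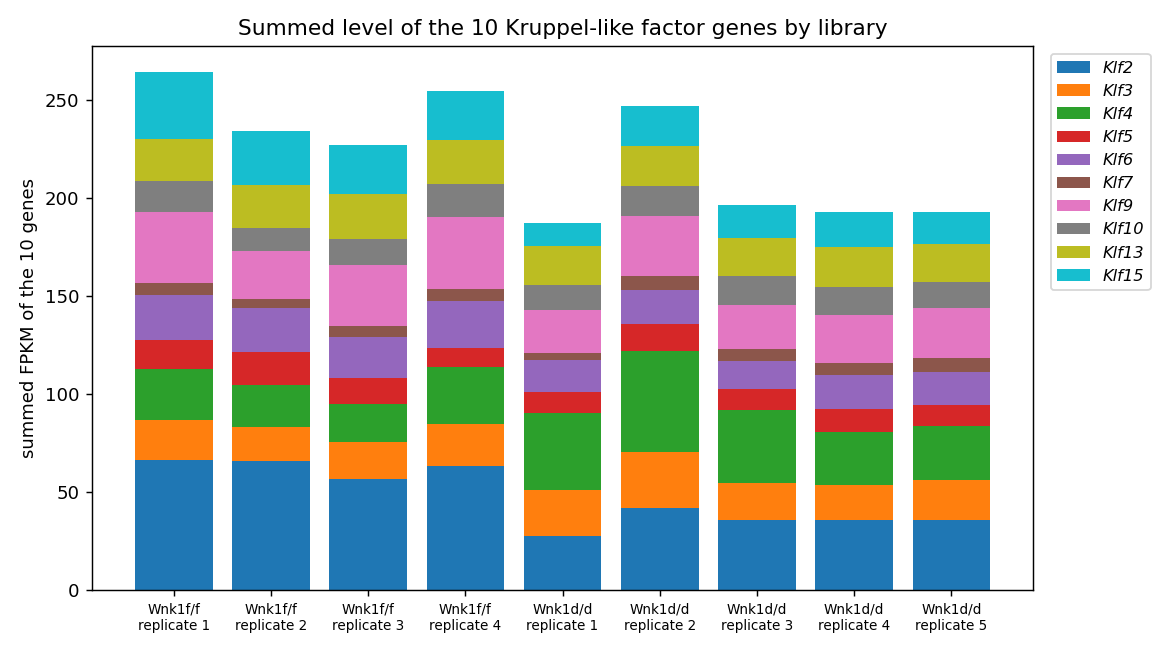
Summed FPKM (y axis, linear, starting at 0) of the 10 Kruppel-like factor genes in each of the 9 libraries (x axis), stacked by gene in colour. Klf2, at the base, is thicker in the Wnk1f/f libraries (56.7 to 66.3 FPKM) than in the Wnk1d/d libraries (27.6 to 41.9 FPKM), and Klf4, in green, is thickest in Wnk1d/d replicate 2 (51.25 FPKM).

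The members were then set beside the cell types of the uterus, by lists of marker genes. Of the 8 endothelial markers, 7 were called lower in Wnk1d/d uteri and the other, *Tie1*, had a log2 fold change of -0.63 (limma adjusted p = 0.053). Over the list the log2 fold change had a median of -0.69, with *Vwf* at -1.08 (limma adjusted p = 0.0076), *Cdh5* at -1.02 (0.0094), *Emcn* at -0.70 (0.016) and *Cldn5* at -0.68 (0.017). Summed, they were at 526 to 575 FPKM in Wnk1f/f and 224 to 428 FPKM in Wnk1d/d libraries. Within Wnk1d/d, replicate 1, with the lowest sum (224 FPKM), had the lowest level of *Klf2* and *Klf15*, and replicate 2, with the highest sum (428 FPKM), had the highest. Replicates 3 to 5 had sums of 281, 378 and 359 FPKM at nearly the same *Klf2* level (35.4 to 35.7 FPKM). Within Wnk1f/f the order was different, as replicate 1 had the lowest sum (526 FPKM) and the highest *Klf2* and *Klf15*. Expressed as a percentage of the endothelial sum, *Klf2* was 11.5% ± 0.915 (SD, n = 4; 10.4% to 12.6%) in Wnk1f/f and 10.8% ± 1.54 (SD, n = 5; 9.37% to 12.6%) in Wnk1d/d uteri, and the genotypes overlapped. *Klf15* was 5.12% ± 0.96 of it in Wnk1f/f and 5.03% ± 0.528 in Wnk1d/d uteri, again with overlap. *Klf6* was at 4.11% ± 0.291 (3.81% to 4.39%) of it in Wnk1f/f and 5.13% ± 1.29 (4.08% to 7.33%) in Wnk1d/d uteri. Every Wnk1d/d library except replicate 2 (4.08%) was above all controls, with replicate 1 the highest (7.33%). *Klf4* was at 4.38% ± 0.824 (3.58% to 5.22%) of the endothelial sum in Wnk1f/f and at 11.5% ± 4.24 (7.2% to 17.4%) in Wnk1d/d uteri, the only one of these 4 genes without overlap. As this sum was lower in Wnk1d/d uteri, a gene of unchanged level also rises in this percentage. These percentages were computed after the values were seen, and the part of endothelial RNA in the lower *Klf2* and *Klf15* levels was not tested further.

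All 8 smooth muscle markers were called higher in Wnk1d/d uteri (median log2 fold change 1.11), led in adjusted p by *Myocd* (1.001, limma adjusted p = 0.0066), *Actg2* (2.03, 0.0067), *Des* (1.22, 0.010) and *Cnn1* (1.42, 0.011). Their sum was 2970 to 6680 FPKM in Wnk1f/f and 7500 to 14100 FPKM in Wnk1d/d libraries. Within Wnk1d/d, *Klf4* ran against this sum. Replicates 4 and 5, with the highest sums (14100 and 13500 FPKM), were those in the control range for *Klf4*. Replicate 2, with the lowest sum (7500 FPKM), had the highest *Klf4*. Within Wnk1f/f this held in part. Replicate 4, with the lowest sum (2970 FPKM), had the highest *Klf4* (28.8 FPKM). Replicate 1, with the highest sum (6680 FPKM), was at 26.0 FPKM, above replicates 2 (21.65 FPKM) and 3 (19.6 FPKM). As a percentage of the smooth muscle sum, *Klf4* was at 0.554% ± 0.284 (SD, n = 4; 0.358% to 0.969%) in Wnk1f/f uteri. In Wnk1d/d uteri it was at 0.363% ± 0.2 (SD, n = 5; 0.193% to 0.684%), with overlap. The part of muscle RNA in the spread of *Klf4* was not tested. The 8 epithelial markers, the cell type of the known uterine roles of KLF4 and KLF5, had 0 calls by limma (1 at an unadjusted p under 0.05), and their sum overlapped (921 to 1450 and 1020 to 1450 FPKM), with *Krt18* at 365 and 347 FPKM and *Cldn3* at 362 and 381 FPKM. Of 8 stromal markers, 4 were lower, *Hoxa10* (-0.55, limma adjusted p = 0.0062), *Hoxa11* (-0.59, 0.0065) and *Pdgfra* (-0.78, 0.0085) among them, and 3 were higher, with *Col1a1* at 0.96 (0.0052). Leukocyte markers (0 of 6 called; *Cd68* and *Csf1r* the highest), liver markers (0 of 8; *Alb* and *Serpina1a*) and red cell markers (0 of 2; *Hba-a2* and *Hbb-bt*) had no calls by limma, and at an unadjusted p under 0.05 the numbers were 0, 2 and 0. The sums overlapped for leukocyte (41.9 to 85.3 and 35.1 to 61.3 FPKM) and red cell markers (49.5 to 96.9 and 39.8 to 176 FPKM).

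**Figure D4:**
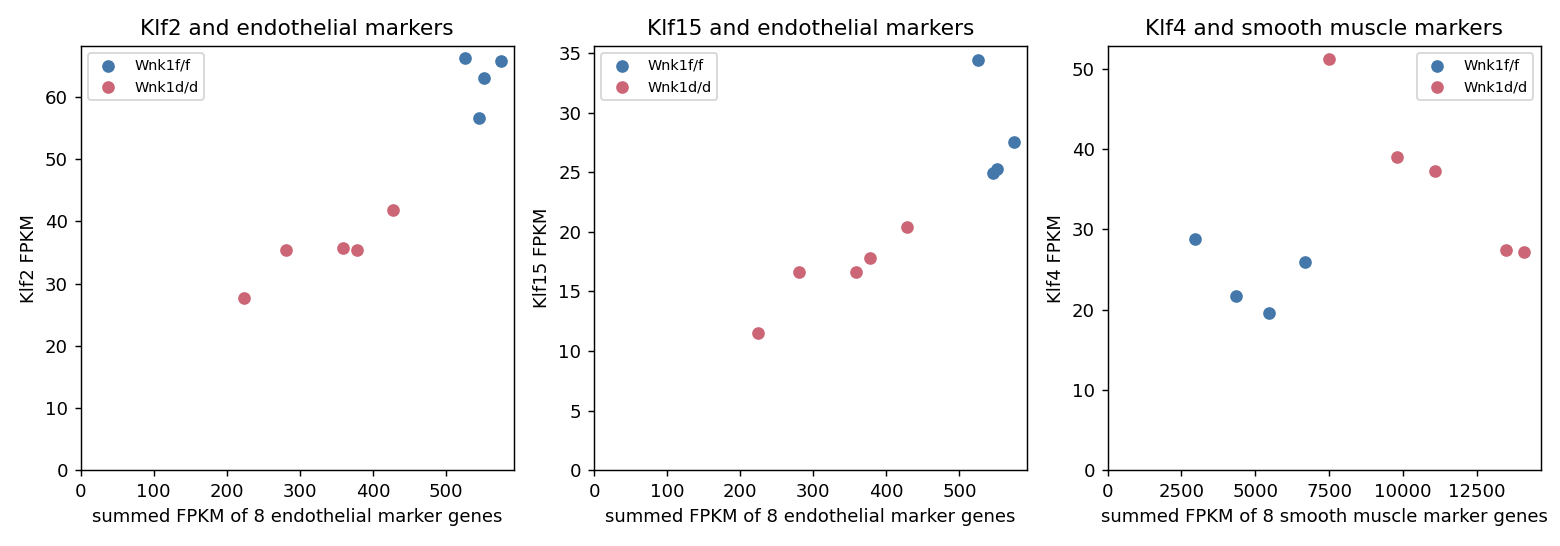
FPKM of Klf2, Klf15 and Klf4 (y axes) against the summed FPKM of 8 endothelial or 8 smooth muscle marker genes (x axes), 1 point per library, blue for Wnk1f/f and red for Wnk1d/d. Klf2 and Klf15 are lowest in the Wnk1d/d library with the lowest endothelial sum (224 FPKM) but highest in the Wnk1f/f library with the lowest sum of its genotype (526 FPKM), and Klf4 is highest in the Wnk1d/d library with the lowest smooth muscle sum (7500 FPKM).

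Other genes of the zinc finger family were mostly low or not called. Of 7 further Kruppel-like genes, 4 (*Klf1*, *Klf12*, *Klf14* and *Klf17*) were under the filter of 1 FPKM. *Klf11*, whose product is the TGF-beta-inducible relative of KLF10, was called lower, from 15.0 ± 2.2 (SD, n = 4) to 9.59 ± 2.56 FPKM (SD, n = 5; log2 fold change -0.63, SE 0.19, limma adjusted p = 0.045), although the genotypes overlapped. *Klf8* and *Klf16* were not called (limma adjusted p = 0.52 and 0.14). Of the SP factors, which bind the same GC-rich elements, 5 of 9 passed the filter and 0 were called by limma (2 at an unadjusted p under 0.05). The highest were *Sp1* (22.7 and 19.6 FPKM, limma adjusted p = 0.12) and *Sp3* (16.9 and 16.4 FPKM, limma adjusted p = 0.80). Among 14 genes for cofactors and ubiquitin ligases of the family, 1 was called, *Sin3b*, which encodes a scaffold of the SIN3 corepressor, from 84.7 to 100 FPKM (log2 fold change 0.24, limma adjusted p = 0.036).

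Upstream regulators were examined next. Of the 4 steroid receptor genes tested 0 were called by limma (1, *Esr1*, at an unadjusted p under 0.05), with *Esr1* at 41.3 and 50.2 FPKM (limma adjusted p = 0.13) and *Pgr* at 16.6 and 17.8 FPKM (limma adjusted p = 0.66). Among 8 genes that respond to glucocorticoids or progestins, as *Klf9* and *Klf15* are known to do, 3 fell. *Tsc22d3*, the glucocorticoid-induced leucine zipper, went from 130 to 71.5 FPKM (log2 fold change -0.86, limma adjusted p = 0.0055), *Ddit4* from 40.1 to 29.2 FPKM (-0.45, 0.027) and *Per1* from 22.9 to 18.2 FPKM (-0.33, 0.027). Their median log2 fold change was -0.22, and *Fkbp5*, a widely used marker of these receptors, was at 15.0 and 17.3 FPKM (limma adjusted p = 0.38). Of 9 TGF-beta genes, around *Klf10*, 1 was called, *Smad3* (25.3 to 17.2 FPKM, log2 fold change -0.54, limma adjusted p = 0.0066), and the median of the list was 0.01. Of 14 immediate early genes, a class that *Klf4*, *Klf6* and *Klf10* join in many cells, 1 rose and 2 fell. *Ier3* went from 144 to 265 FPKM (log2 fold change 0.87, limma adjusted p = 0.0014), *Egr1* from 27.0 to 19.4 FPKM (-0.47, 0.025) and *Myc* from 98.4 to 67.2 FPKM (-0.55, 0.015).

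Genes known as targets of the members moved in both directions. For KLF4 and KLF5, 2 of 9 cell cycle genes rose and 2 fell. *Cdkn1a*, the p21 inhibitor that KLF4 induces, went from 7.79 to 23.3 FPKM (log2 fold change 1.41, limma adjusted p = 0.0041) with no overlap, and *Ccnd1* from 32.0 to 64.3 FPKM (1.03, 0.020). *Myc* and *Cdkn1b* (44.3 to 31.1 FPKM, -0.50, 0.021) fell. Of 9 genes of replication licensing, the step on which KLF15 is known to act in uterine epithelium through *Mcm2*, 1 was called, *Mcm3* (14.7 to 19.4 FPKM, log2 fold change 0.39, limma adjusted p = 0.048). *Mcm2* itself was at 12.2 and 15.7 FPKM (limma adjusted p = 0.13), and 8 of the 9 had a log2 fold change above 0.

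For KLF2, 7 of 8 listed endothelial targets could be tested, and 2 fell and 1 rose. *S1pr1*, the sphingosine-1-phosphate receptor, went from 18.0 to 11.7 FPKM (log2 fold change -0.60, limma adjusted p = 0.013) and *Tek*, the angiopoietin receptor, from 21.8 to 12.6 FPKM (-0.77, 0.013). Both are expressed mainly in endothelium, and the part of the lower endothelial marker level in their change was not tested. *Cav1*, also abundant in muscle, rose from 145 to 204 FPKM (0.49, 0.010). *Nos3* (log2 fold change -0.55, limma adjusted p = 0.064) and *Thbd* (-0.30, 0.078) were not called. Among metabolic genes linked to KLF15, the glucose transporter *Slc2a4* rose from 10.3 to 16.4 FPKM (log2 fold change 0.65, limma adjusted p = 0.034).

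The genes whose pattern was most like that of the hormone-linked members were sought among 11043 genes, over the 9 libraries with the genotype means subtracted, as a description. For *Klf4* they were *Myo19* (Pearson's r = 0.973), *Golga4* (0.969) and *Spred2* (0.962), and for *Klf5* they were *Oxld1* (0.940), *AK218226* (0.917) and *Mid1ip1* (0.916). For *Klf9* they were *Nup133* (0.975), *Srek1* (0.963) and *Trim46* (0.952), and for *Klf15* they were *Prss12* (0.971), *Mafg* (0.967) and *Clasrp* (0.958). With so many genes and 9 points that share their libraries, values of this size at the top of the list are not a finding. Within the family, *Klf2* and *Klf15* varied most alike by Pearson's r (0.907, Spearman's rho = 0.883), followed by *Klf3* and *Klf4* (0.852 and 0.850). By Spearman's rho, *Klf7* with *Klf9* equalled the first pair (0.883, Pearson's r = 0.747). The lowest of the 45 pairs was *Klf5* with *Klf10* (Pearson's r = -0.431).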

How the data were processed

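Uterine RNA of 4 Wnk1f/f and 5 Wnk1d/d mice was sequenced in paired ends with 1 library per mouse. Per the labels, TopHat2 2.0.4 was used for alignment to mm10 and Cufflinks 2.0.2 for FPKM, and the deposited FPKM table has 1 column per mouse, without pooling. FPKM are scaled for gene length and library size, the gene annotation and strand setting are not given in the sources used here, and the depth is unknown. The deposited values were used as log2(FPKM + 1) without further scaling. The test was limma (version 3.58.1, R version 4.3.3, moderated with a trend), applied to genes whose mean exceeded 1 FPKM in either genotype, a step tested on simulated data. The study's own test, Cuffdiff, needs reads and was not rerun. Permutation tests ran in Python 3.11.15 with SciPy 1.17.1 and NumPy 2.4.6. Genome positions came from GENCODE M21 on mm10 and promoters from RefSeq.

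The members and gene lists were chosen with earlier results of these data known. All 10 members are named. From each list the called genes are named (at most the 4 with the smallest adjusted p), or the 2 highest where none was called, and *Mcm2*, *Fkbp5*, *Klf8*, *Klf16*, *Nos3*, *Thbd* and *Tie1* were added after their values were seen. Some results of these lists are not reported here. Genes most like a member were sought among those with a mean of at least 5 FPKM. The alternatives were pseudocounts of 0.1 and 0.01, no filter or a filter at 5 FPKM, scaling to equal medians, quantile normalization, a replicate block, other fold criteria, limma with array weights, robustly or without the trend, and leaving out each library. Leaving out replicate 4 of both genotypes was added after seeing the data.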

Additional observations from a re-analysis of the deposited data

How the results depend on the processing

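Under the 20 alternative fits, *Klf2* was called in 20, and *Klf6* and *Klf15* in 19 each. The exception was the replicate block, over the numbers that both genotypes have, which used 8 libraries: 1 member (*Klf2*) was called lower and 1 with the 1.5-fold criterion, *Klf6* had a log2 fold change of -0.45 (limma adjusted p = 0.057) and *Klf15* of -0.74 (0.095), and *Klf7* turned to -0.006. The numbers do not mark shared animals, and the deviations of same-numbered libraries correlated at -0.087, -0.003, 0.022 and -0.268, and 0 of 8 correlated best with its own number. *Klf13* was called without the filter (-0.15, limma adjusted p = 0.039), with the filter at 5 FPKM (-0.15, 0.040), after quantile normalization (-0.16, 0.034) and with array weights (-0.15, 0.032). Demanding a ratio of at least 2 left 0 members lower. Without replicate 4 of both genotypes *Klf10* turned to 0.033, *Klf4* was at 0.74 (limma adjusted p = 0.059), and the 3 calls remained. Leaving out 1 library at a time gave log2 fold changes of 0.43 to 0.65 for *Klf4*, -0.45 to -0.26 for *Klf9*, -0.019 to 0.201 for *Klf7* and -0.124 to 0.042 for *Klf10*, and 0 to 1 members called higher with or without the 1.5-fold criterion. *Klf2*, *Klf6* and *Klf15* were called in all 9 of these fits. FPKM carry no depth, so a difference missed in *Klf3*, *Klf5*, *Klf7* or *Klf10* is limited only by the intervals given.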
